A study of Mus musculus with 155 samples.

Results

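The NMDA and AMPA receptors are the ionotropic glutamate receptors described here, through 10 genes of the 55471 in the count tables. These genes were listed by name: Grin1, Grin2a, Grin2b, Grin2c, Grin2d and Grin3a for the NMDA receptor, and Gria1, Gria2, Gria3 and Gria4 for the AMPA receptor. The set was chosen by the measured level of Grin1, which was higher in ESCs that express H3.3K27M, so values of H3.3K27M against WT-H3.3 ESCs are given as a description with no test for every gene of the set.

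Ionotropic glutamate receptors are tetrameric cation channels that open when glutamate binds. NMDA receptors need the GluN1 subunit, encoded by Grin1, in every channel. They combine it with GluN2 subunits, which bind glutamate and set the kinetics of the channel, or with GluN3 subunits, which bind glycine. AMPA receptors are built from GluA subunits and carry most fast excitatory transmission, and the GluA2 subunit of Gria2 makes the channel nearly impermeable to calcium. Cells of the oligodendrocyte lineage also carry both receptors, and receive synapses from neurons.

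KH2 is a mouse ESC line into which a Dox-inducible extra copy of H3.3, tagged with SNAP and HA, was placed as WT, K27M or K27L. The mutants replace lysine 27 of H3.3 with methionine or leucine. RNA-seq libraries came from ESCs of each of these lines and from WT-H3.3 ESCs given both Dox and GSK343, an inhibitor of the PRC2 methyltransferase, at 4, 8, 24 and 72 h of Dox with 2 replicates each (32 libraries). RA-treated cells of the 3 lines, grown without LIF and 2i for up to 4 days, had 1 library at 24 h and 1 at 72 h of Dox (6 libraries), and OPC cultures of the WT-H3.3 and H3.3K27M lines, made through embryoid bodies with RA and purmorphamine, had the same times (4 libraries). All groups had received Dox, and all clones carried a potential duplication of chromosome 8. How many clones stand behind a line is not given in the sources used here. ESC replicates were made weeks apart. For RA-treated cells and OPCs nothing in the labels says that libraries of a line came from separate cultures, so their p-values measure the spread between these libraries, which may be technical.

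Counts per library ran from 68378 to 21161392 in ESCs (median 8434332), from 2239137 to 22269533 in RA-treated cells and from 7499258 to 12387113 in OPCs. The shallowest library was replicate 2 of H3.3K27L ESCs at 72 h, in which all 10 genes were at 0, followed by replicate 2 of GSK343-treated ESCs at 8 h with 1247934 counts. Pluripotency markers (9 genes) summed to between 3432 and 7411 CPM (counts scaled to the library size by TMM factors) in ESCs, to between 94.4 and 289 in RA-treated cells and to between 277 and 338 in OPCs. The RA-treated cells, labelled as neural progenitors, held Pax6 at 11.2 to 37.8 CPM, and endoderm markers (6 genes) summed to between 356 and 1755 CPM in them. In OPCs, Olig2 was at 289 to 1077 CPM, while Sox10 stayed at 3.54 CPM or less. In bulk libraries, fewer cells of a type and less RNA per cell cannot be told apart.

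In mm9, Grin1 spans chr2:25146701-25174707 on the minus strand. The GluN2 genes are Grin2a at chr16:9577803-9995014, Grin2b at chr6:135679844-136123529, Grin2c at chr11:115110483-115128557 and Grin2d at chr7:53087253-53126298, all on the minus strand. Grin3a lies at chr4:49674483-49858616 on the minus strand. Of the AMPA receptor genes, Gria1 (chr11:56824889-57143746) and Gria3 (chrX:38754031-39031778) are on the plus strand, and Gria2 (chr3:80488858-80606713) and Gria4 (chr9:4417899-4796234) on the minus strand. The exons of Grin1 share 1307 bases with the antisense transcript E130003G02Rik. The strand setting of the counting is not given in the sources used here, so reads of this pair cannot be assigned with certainty. E130003G02Rik itself had at most 6 counts in a library, with 11 counts over the 8 WT-H3.3 and 19 over the 8 H3.3K27M ESC libraries. These sums are not scaled for depth, and the WT-H3.3 libraries were deeper (median 11799110 against 8541135 counts).

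The promoters of Grin1 and Gria2 are shown because Grin1 had more counts in ESCs than in OPCs and Gria2 more in OPCs than in ESCs. The sequences are RefSeq (GRCm38.p6), from 250 bases before the start site to 30 after it, 5′ to 3′ on the strand of the gene, at chr2:25319158-25319437 and chr3:80802806-80803085. Capitals mark matches, on either strand, to the E box CACGTG, the hypoxia response cores ACGTG and GCGTG, the RE1 parts TTCAGCACC and GGACAGC, the Egr1 motif GCGGGGGCG and the Sp1 motif GGGGCGGGG.
Grin1: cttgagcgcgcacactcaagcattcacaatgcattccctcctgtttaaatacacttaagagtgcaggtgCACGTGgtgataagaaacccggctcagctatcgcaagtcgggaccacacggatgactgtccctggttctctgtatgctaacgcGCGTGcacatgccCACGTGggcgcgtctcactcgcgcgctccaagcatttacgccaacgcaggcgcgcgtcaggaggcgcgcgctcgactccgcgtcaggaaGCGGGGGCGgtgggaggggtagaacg
Gria2: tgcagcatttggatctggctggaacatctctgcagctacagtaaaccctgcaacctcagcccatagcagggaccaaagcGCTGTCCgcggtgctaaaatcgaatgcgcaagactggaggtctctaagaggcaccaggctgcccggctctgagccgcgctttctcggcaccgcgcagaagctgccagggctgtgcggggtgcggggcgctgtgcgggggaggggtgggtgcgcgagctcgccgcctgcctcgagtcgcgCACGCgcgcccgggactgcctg

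The Grin1 window held 2 E boxes, each of which also contains the ACGTG core, 1 GCGTG core and 1 Egr1 motif. The Gria2 window held the RE1 part GGACAGC and GCGTG, both on the opposite strand. Of 32851 promoter windows of this length, 6.79% held CACGTG, 18.5% ACGTG, 30.8% GCGTG, 2.83% the Egr1 motif, 6.05% GGACAGC, 0.335% TTCAGCACC and 11.2% the Sp1 motif. The Grin1 window held 30 CpG and was 60.4% GC, beside a median of 6 CpG and 52.5% over all windows, and that of Gria2 held 26 CpG at 66.4% GC. In all, 5 of the 10 genes had a promoter entry, and those of Grin2c, Grin2d and Gria4 were also searched, with the Sp1 motif in Grin2c, GCGTG in Gria4 and none of these motifs in Grin2d. A match is only a description of letters.

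In ESCs the receptor genes were near the floor of detection, with Grin1 and Grin2d the highest. Over the 32 ESC libraries, Grin1 stood at 0.290 ± 0.190 CPM per kb of exon (SD, n = 32) and Grin2d, a GluN2 subunit found in the embryonic brain, at 0.260 ± 0.0895. These means differed by less than their spread, and Grin1 came first only with the 8 H3.3K27M libraries by which the set was chosen. In WT-H3.3 ESCs Grin2d was at 0.287 and Grin1 at 0.236 CPM per kb, in H3.3K27L at 0.268 and 0.164, and with GSK343 at 0.262 and 0.227. Grin2c, a GluN2 subunit of the cerebellum and of glia, followed at 0.0825 ± 0.0807 CPM per kb, then Gria3 at 0.0640 ± 0.0417 and Gria4 at 0.0586 ± 0.0436, and neighbours in this order again lay within their spread. The other 5 genes averaged 0.0312 CPM per kb or less. Gria1 had 8 counts in all 32 libraries, and Gria2 had 10. The kits named are QuantSeq 3′, which reads 3′ ends, and KAPA, so a level per kb ranks genes only roughly where 3′ ends were read.

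**Figure D1:**
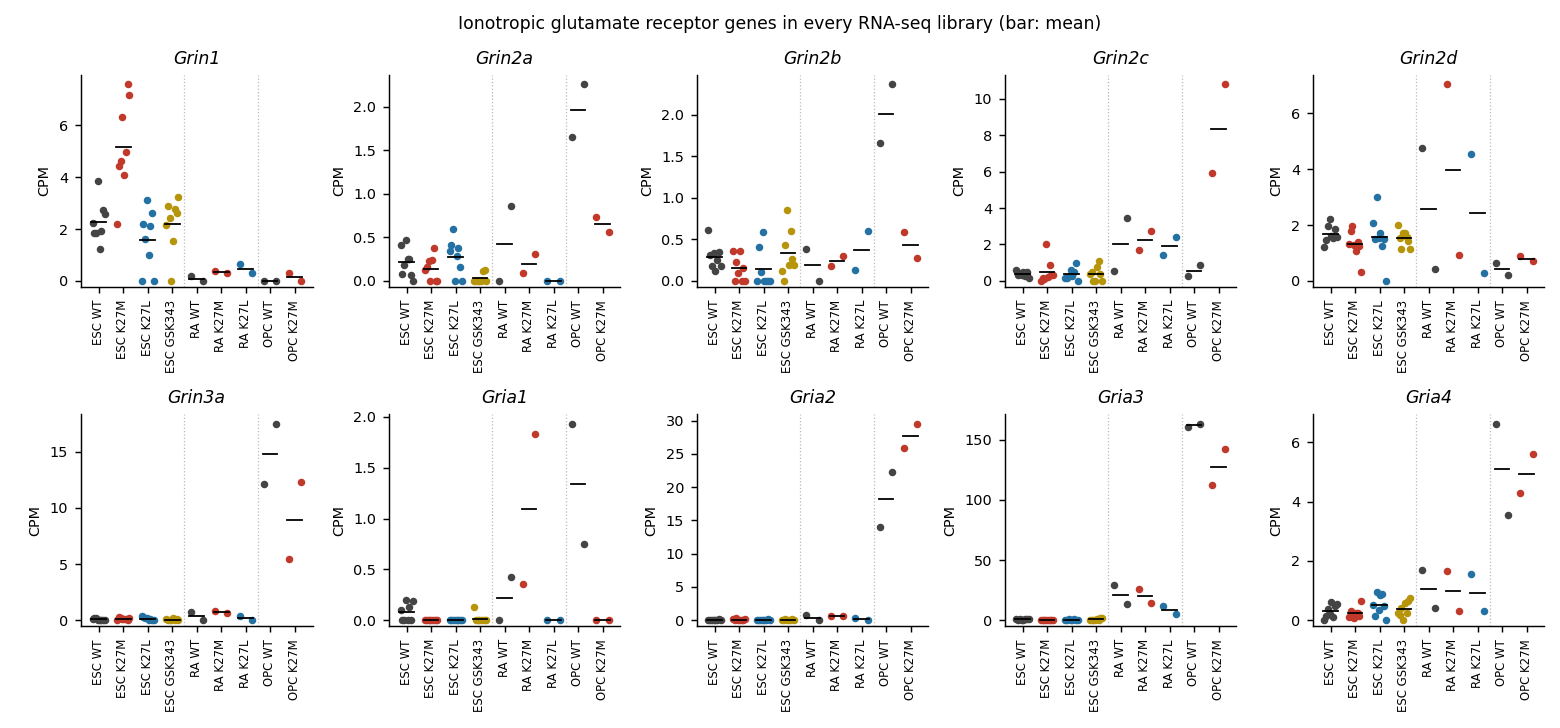
CPM of each receptor gene (y axis, own scale in each panel) in every library, grouped along the x axis by state and line. Points are libraries and bars are means. Grin1 is highest in H3.3K27M ESCs and Grin2d in RA-treated cells, and the other 8 genes reach their highest group mean in OPCs, led by Gria3 at 162 CPM in WT-H3.3 OPCs.

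Grin1 in ESCs is the value by which the set was chosen. At 24 h of Dox it was at 4.08 and 4.99 CPM in the H3.3K27M libraries and at 1.23 and 1.91 CPM in the WT-H3.3 libraries. At 72 h it was at 7.58 and 7.16 CPM in H3.3K27M and at 2.74 and 2.60 CPM in WT-H3.3. The groups did not overlap at these times. At 4 h the H3.3K27M libraries stood at 2.19 and 4.42 CPM and the WT-H3.3 libraries at 2.24 and 1.86, and at 8 h they stood at 4.65 and 6.32 against 1.86 and 3.86 CPM. The groups overlapped at 4 h and not at 8 h. The raw counts behind these values were small, between 10 and 69 per library.

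The fitted difference of Grin1 at 24 and 72 h was 1.48 (log2, SE 0.44) and over all 4 times 1.14 (SE 0.31). Among 14076 genes tested in ESCs, 1.56% had all 4 H3.3K27M libraries of 24 and 72 h above all 4 WT-H3.3 libraries. Under the thresholds used for the other comparisons, 0.0% of the genes tested were called at 24 and 72 h together and 0.0142% over all times. Grin2d went the other way at 24 and 72 h, with 1.08, 1.41, 1.26 and 0.333 CPM in H3.3K27M against 1.60, 1.53, 1.85 and 1.58 in WT-H3.3, without overlap, and 1.27% of all genes had this order. Its fitted difference was -0.71 (SE 0.33). Gria3 ranged from 0.333 to 0.640 CPM in H3.3K27M and from 0.370 to 1.37 in WT-H3.3, which overlap, with a difference of -0.95 (SE 0.42). The other 7 genes did not pass the filter on low counts in ESCs. Over the 8 libraries of each line they had 0 to 37 counts in H3.3K27M and 2 to 35 in WT-H3.3. Of these, Gria1 had 7 counts in WT-H3.3 and 0 in H3.3K27M, and Grin2b, a GluN2 subunit of the forebrain, 27 and 10. Such sums are not scaled for depth, and the WT-H3.3 libraries were deeper (median 11799110 against 8541135 counts).

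**Figure D2:**
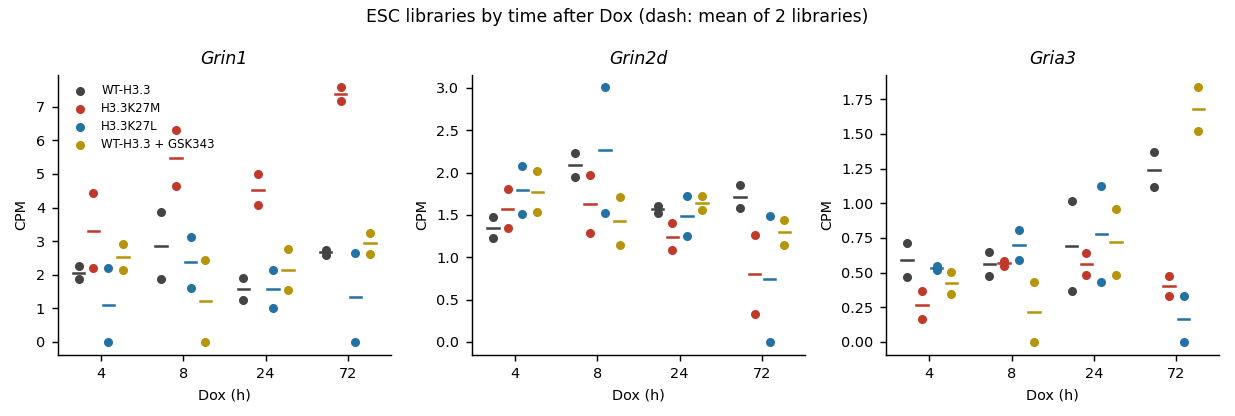
CPM of Grin1, Grin2d and Gria3 (y axis) in ESCs by hours of Dox (x axis). Points are libraries, dashes are means of 2 libraries. H3.3K27M libraries lie above those of the other groups for Grin1 at 8, 24 and 72 h, while H3.3K27L and GSK343 libraries stay at 3.23 CPM or less.

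The comparisons that the choice did not use asked whether the leucine mutant or the PRC2 inhibitor moved the same genes. No receptor gene was called in them. Grin1 in H3.3K27L ESCs had a lowest value of 0, a median of 1.87 and a highest value of 3.13 CPM, and in GSK343-treated ESCs 0, 2.52 and 3.23 CPM. In WT-H3.3 ESCs these were 1.23, 2.08 and 3.86 CPM, so all 3 groups overlap. Against WT-H3.3, the log2 difference of Grin1 was -0.29 (95% interval -0.99 to 0.41) in H3.3K27L and 0.08 (-0.59 to 0.74) with GSK343, with adjusted p-values of 0.655 and 0.996 in edgeR's quasi-likelihood test. These WT-H3.3 libraries are also those of the H3.3K27M comparison. The H3.3K27L groups included 2 libraries at 0 for Grin1, the shallow library at 72 h and replicate 1 at 4 h.

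For Grin2d the differences were 0.04 (95% interval -0.41 to 0.49) with H3.3K27L and -0.15 (-0.61 to 0.30) with GSK343. For Gria3, an AMPA receptor subunit, they were -0.37 (-1.01 to 0.26) and -0.14 (-0.74 to 0.46). With H3.3K27L, 0 of the 3 genes tested were called by edgeR's quasi-likelihood test, beside 3.46% of all genes. With GSK343 it was 0 of 3 beside 0.0% of all genes, of which 621 had an unadjusted p under 0.05. Late against early Dox in WT-H3.3 cells called 0 of 3 (0.071% of all genes), with Gria3 at 0.71 (-0.03 to 1.44), and the test of whether the H3.3K27L difference itself changed between early and late times called 0 of 3 (0.0% of all genes, 183 at an unadjusted p under 0.05). In each of these 4 comparisons, 0 of the 3 receptor genes had an unadjusted p under 0.05, and DESeq2 called 0.

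Over the 31 ESC libraries of at least 1000000 counts, the genes whose CPM ranked most like Grin1 were Eefsec (Spearman coefficient 0.77), A2m (0.74), Usp28 (0.73), Auts2 (0.72) and Gm11457 (0.69). Eefsec is an elongation factor for selenocysteine, A2m a protease inhibitor and Usp28 a deubiquitinase. For Grin2d they were Armc5 (0.64), Ttc30b (0.63) and D2hgdh (0.61), and for Gria3 Rhof (0.68), Trove2 (0.63) and Gja1 (0.62). Grin1 and Grin2d had a coefficient of -0.43, and the other pairs of these 3 genes -0.03 and 0.03. The libraries share lines and preparation, and H3.3K27M libraries are part of them, so these coefficients are a description.

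In RA-treated cells Grin1 had 17 counts over the 6 libraries, from 0 to 0.647 CPM, and 657 counts over the 24 ESC libraries of the same 3 lines. Of these 657 counts, 318 are from the H3.3K27M libraries whose level chose the set, so the difference averaged over the lines, -3.16 on the log2 scale (SE 0.49), is a description. In the WT-H3.3 line alone it was -4.01 (SE 1.09), from 1 count in RA-treated cells and 216 in ESCs. Gria3 rose from a range of 0 to 1.37 CPM in the ESCs of these lines to 29.4 and 13.3 CPM in WT-H3.3, 25.8 and 14.7 in H3.3K27M and 11.9 and 5.15 in H3.3K27L RA-treated cells (24 h, then 72 h), with no overlap. Its log2 difference was 4.65 (SE 0.21, edgeR quasi-likelihood adjusted p = 4.34e-22). In all, 6 of the 10 genes were higher and 1 lower, beside 25.9% and 22.0% of all 16462 genes tested (47.9% together). Grin2d was 1.04 higher (SE 0.29). Grin2c (2.03, SE 0.45), Grin3a (1.77, SE 0.52), Gria2 (3.27, SE 0.61) and Gria4 (1.67, SE 0.38) did not pass the filter on low counts in ESCs, and their values are a description.

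Several of these differences rested on the 24 h libraries. With RA libraries of 72 h alone, Grin2d was lower than in ESCs (-1.71, adjusted p = 0.00309 in edgeR's quasi-likelihood test), and Grin3a (-1.40), Gria4 (-0.10) and Gria2 (0.13) no longer passed. Without the WT-H3.3 or the H3.3K27L library of 24 h, 3 genes were called instead of 7. State, count table and any difference in library kit cannot be told apart in this comparison.

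Between Dox times in RA-treated cells, 2 of the 3 receptor genes tested were called, Grin2d and Grin2c, beside 42.9% of all 12265 genes. Grin2d passed the filter on low counts only through the libraries of 24 h, and Grin2c only through those of 72 h. The p-values of these genes and the count of calls are therefore a description. Grin2d was at 4.74, 7.03 and 4.53 CPM at 24 h (in WT-H3.3, in H3.3K27M, then in H3.3K27L) and at 0.429, 0.916 and 0.303 CPM at 72 h. All libraries of 72 h were below those of 24 h, and Grin2d fell by 3.02 on the log2 scale (SE 0.52, edgeR quasi-likelihood adjusted p = 0.000238). Grin2c was at 0.569, 1.70 and 1.42 CPM at 24 h and at 3.43, 2.75 and 2.42 CPM at 72 h, and rose by 1.35 (SE 0.52, edgeR quasi-likelihood adjusted p = 0.0328). Counts of Grin2c were 3 to 38 per library, and it lost its call with DESeq2 (adjusted p = 0.0784), with no filter on low counts (edgeR adjusted p = 0.0561) and when any single library other than H3.3K27L at 72 h was left out. Gria3 was lower at 72 h in all 3 lines by -0.77 (SE 0.21, edgeR quasi-likelihood adjusted p = 0.00523), short of a 2-fold change.

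Among genes under the filter, Gria4 was at 1.71, 1.66 and 1.55 CPM at 24 h and at 0.429, 0.305 and 0.303 CPM at 72 h, where each library had 1 count. Grin3a and Gria2 had 25 and 23 counts over the 3 libraries of 24 h and 2 each over those of 72 h. The libraries of 24 h held 5050115 to 22269533 counts and those of 72 h 2239137 to 3268238, and Dox was added after RA, so Dox time, time in RA and depth cannot be told apart here. Fibroblast markers summed to 814 to 1585 CPM at 24 h and to 137 to 420 CPM at 72 h, with 8 and 7 of 8 detected (Lum at 0 at 72 h). Astrocyte markers summed to 590 to 882 and to 365 to 403 CPM, with 7 and 5 of 7 detected (Aqp4 and S100b at 0 at 72 h), and neither list overlapped between times. Neural progenitor markers, with all 7 detected, summed to 750 to 2116 and to 282 to 877 CPM, which overlap. The part of these differences in those of the receptor genes was not tested.

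**Figure D3:**
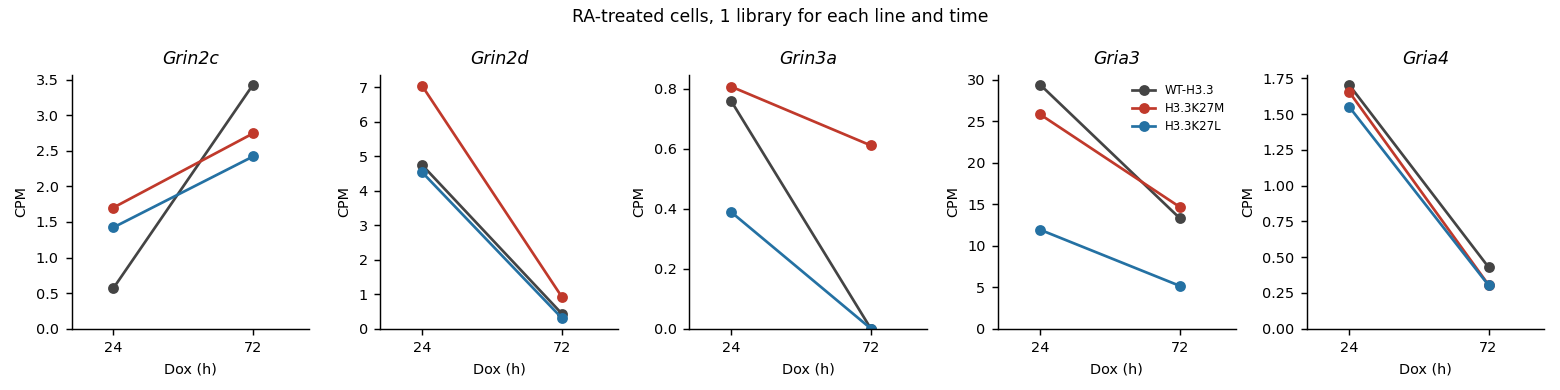
CPM of 5 receptor genes (y axis) in RA-treated cells at 24 and 72 h of Dox (x axis), each point being 1 library and each line joining the libraries of a cell line. Grin2d and Gria4 are lower at 72 h in all 3 lines, Grin2c is higher, and H3.3K27L lies lowest for Gria3 at both times.

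Between lines, Gria3 was lower in RA-treated H3.3K27L cells. Its values of 11.9 and 5.15 CPM (24 h, then 72 h) were both below the 29.4 and 13.3 CPM of WT-H3.3, without overlap. With Dox time in the model, Gria3 fell by 1.32 on the log2 scale (SE 0.26, edgeR quasi-likelihood adjusted p = 0.0114). This was 1 of 3 receptor genes tested, beside 3.68% of all genes (2.15% lower). Without Dox time in the model it was not called (-1.33, adjusted p = 1.0). In the H3.3K27L cells the endoderm markers summed to 1600 and 1755 CPM, against 356 to 777 CPM in the other lines, and Pdgfra, a receptor also found on endoderm and mesenchyme, was at 173 to 324 CPM against 58.9 to 164. The neuron list summed to 28.3 and 34.8 CPM (Snap25 at 0, as in WT-H3.3) against 45.8 to 66.5 in the other lines, and the pluripotency list to 241 and 289 against 94.4 to 144, both without overlap. Their part in the Gria3 difference was not tested.

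H3.3K27M against WT-H3.3 in RA-treated cells called 0 of 3 receptor genes in edgeR's quasi-likelihood test, 0 at an unadjusted p under 0.05 and 0 with DESeq2, beside 0.0163% of all genes. The log2 differences were 0.47 (95% interval -0.79 to 1.73) for Grin2c, 0.55 (-0.37 to 1.46) for Grin2d and -0.13 (-0.59 to 0.33) for Gria3. Grin1 had 10 counts over the 2 H3.3K27M libraries and 1 over the 2 WT-H3.3 libraries. Scaled for depth this is a ratio of 2.97 with an exact interval of 0.423 to 129, which covers counting error only, so a difference was not detectable at this depth.

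OPC cultures held the most receptor RNA, and most of it was of AMPA receptor genes. Gria3 stood at 14.7 ± 2.37 CPM per kb (SD, n = 4) and Gria2 at 3.296 ± 0.951, a difference beyond their spread. Grin2c at 0.885 ± 0.976, Gria4 at 0.800 ± 0.218 and Grin3a at 0.752 ± 0.312 CPM per kb followed and lay within the spread of each other. Grin2a was at 0.246, Grin2b at 0.150, Gria1 at 0.111 and Grin2d at 0.104 CPM per kb. Grin1, the obligatory subunit, was last at 0.00762, with counts of 0 and 0 in WT-H3.3 and of 2 and 0 in H3.3K27M OPCs (24 h, then 72 h).

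Against ESCs of the same lines, 9 of the 10 genes were called, 7 higher and 2 lower, where 66.9% of all genes were called (29.1% higher, 37.8% lower). Gria2 was at 14.1, 22.2, 25.9 and 29.5 CPM in the 4 OPC libraries and at 0.348 CPM or less in the 16 ESC libraries, which is 8.55 higher on the log2 scale (SE 0.36). Gria3 was at 161 and 163 CPM in WT-H3.3 and at 113 and 142 CPM in H3.3K27M OPCs, and at 1.37 or less in ESCs, a difference of 7.87 (SE 0.24). Grin3a, the GluN3 subunit gene, was 6.55 higher (SE 0.35) and Gria4 4.15 higher (SE 0.36). None of these 4 genes overlapped between the states.

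Of the GluN2 genes, Grin2a was 2.58 higher (SE 0.52), Grin2b 2.02 (SE 0.56) and Grin2c 2.18 (SE 0.53), while Grin2d fell by 1.32 on the log2 scale (SE 0.45). Grin2d did not pass the filter in OPCs alone, so its value is a description. In the WT-H3.3 line alone Grin2c was at 0.49 (SE 0.81) and was not called (edgeR quasi-likelihood adjusted p = 0.591). Grin1 had 2 counts in OPCs and 534 in the ESCs of these lines, a ratio of 0.0167 (exact interval 0.00202 to 0.0606, counting error only). Its fitted difference of -6.13 (SE 0.75) is a description, since 318 of the 534 counts are from H3.3K27M ESCs. The WT-H3.3 line alone had 0 counts in OPCs and 216 in ESCs. Gria1 could not be fitted over both lines, since whole groups were at 0. In the WT-H3.3 line alone it was called at 3.88 (SE 0.71), a description since it did not pass the filter in ESCs, and over both lines it had 28 counts in OPCs against 7 in ESCs. The median of all genes in this comparison was -0.26 with TMM and 0.10 with the size factors of DESeq2, and with the latter Grin2d stopped short of a 2-fold change (-0.96) while the other 8 calls kept their direction. The 7 genes that did not pass the filter in ESCs alone passed here with libraries of the other states in the model, where most of them are higher, so the counts of calls and the values of these genes in both comparisons with ESCs are a description.

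Against RA-treated cells, which share the OPC libraries with the comparison above, 6 genes were higher and 1 lower (47.0% of all genes called, 16.6% higher and 30.4% lower). The log2 differences were 5.22 for Gria2 (SE 0.51), 4.197 for Grin3a (SE 0.51), 2.76 for Gria3 (SE 0.32), 2.45 for Grin2a (SE 0.79), 2.03 for Gria4 (SE 0.49), 1.97 for Grin2b (SE 0.80) and -2.58 for Grin2d (SE 0.52). Gria2, Grin3a, Grin2a, Gria4 and Grin2b did not pass the filter in RA-treated cells alone. Grin2d, the gene called lower, did not pass it in OPCs alone. The values of these genes and the count of calls are again a description. With RA libraries of 72 h alone, 4 were called, Grin3a, Gria2, Gria3 and Gria4, and Grin2d was at -0.09.

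**Figure D4:**
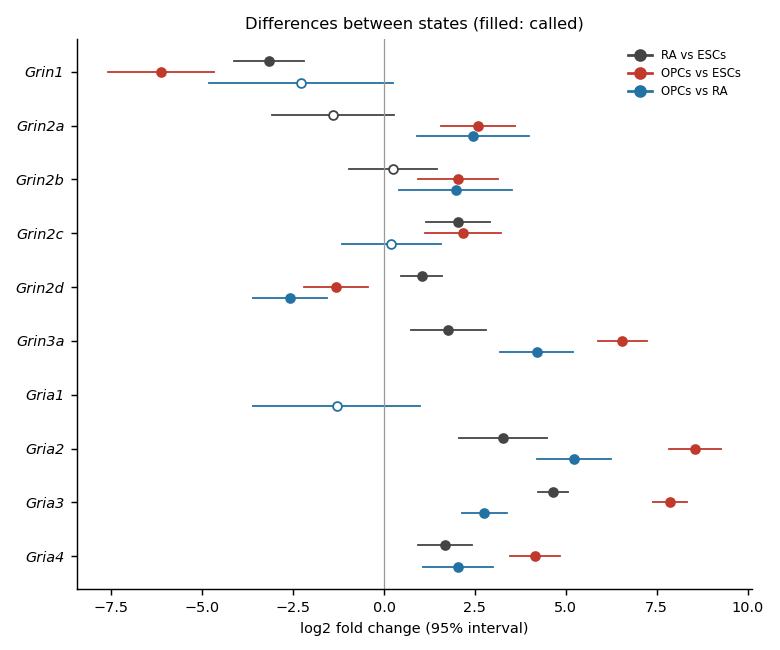
Log2 fold changes (x axis) of the receptor genes (y axis) between states, with 95% intervals. Filled points were called and open points were not, and genes without a point could not be fitted. Gria2, Gria3, Gria4 and Grin3a lie to the right in all 3 comparisons, and Grin1 lies to the left of 0.

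Within OPC cultures, 3 of the 7 receptor genes tested were called between the lines, all of them GluN2 genes. Of all 12511 genes 28.0% were called (13.0% higher, 15.0% lower). Each of the 3 passed the filter on low counts only through the line where it was higher. Their p-values and the count of calls are therefore a description. Grin2c was at 0.276 and 0.859 CPM in WT-H3.3 OPCs and at 5.91 and 10.8 CPM in H3.3K27M OPCs (24 h, then 72 h), from 3 and 8 counts and from 40 and 77. It was 3.90 higher on the log2 scale (SE 0.52, edgeR quasi-likelihood adjusted p = 0.000108). Grin2a, the GluN2 subunit of the mature forebrain, was at 1.66 and 2.25 CPM in WT-H3.3 and at 0.739 and 0.560 CPM in H3.3K27M, and fell by 1.56 (SE 0.53, edgeR quasi-likelihood adjusted p = 0.0289). Grin2b was at 1.66 and 2.36 against 0.591 and 0.280 CPM, and fell by 2.16 (SE 0.60, edgeR quasi-likelihood adjusted p = 0.0106). The libraries of the lines did not overlap for any of these 3 genes, nor for Grin2d, Gria1, Gria2 and Gria3, described below. For Grin2d this rested on 7 and 2 counts in WT-H3.3 against 6 and 5 in H3.3K27M (24 h, then 72 h). The share of all genes without overlap between the OPC lines was not counted. With so few libraries per line such an order often arises by chance, so it is a description only.

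Of these genes DESeq2 called Grin2c alone, with adjusted p-values of 0.171 for Grin2a and 0.0727 for Grin2b. Grin2a lost its call without any of the 4 libraries, and Grin2b without either library of 72 h. The H3.3K27M values of Grin2a and Grin2b rest on 9 and 6 counts.

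The AMPA receptor genes of higher level differed less. Gria2 was at 14.1 and 22.2 CPM in WT-H3.3 and at 25.9 and 29.5 in H3.3K27M OPCs, without overlap, and its difference of 0.62 (SE 0.23, edgeR quasi-likelihood adjusted p = 0.0427) was short of 2-fold. Gria3 differed by -0.34 (SE 0.14) and Gria4 by -0.04 (SE 0.35), with adjusted p-values of 0.0609 and 0.935 in edgeR's quasi-likelihood test. Grin3a was at 12.1 and 17.5 against 5.47 and 12.3 CPM, which overlap, with a difference of -0.72 (SE 0.33, edgeR quasi-likelihood adjusted p = 0.0918). Without the H3.3K27M library of 72 h it was called at -1.40.

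Grin1, Grin2d and Gria1 did not pass the filter in OPCs. Gria1 had 21 and 7 counts in WT-H3.3 and 0 in both H3.3K27M libraries, at least 6.43-fold lower against a floor of 3 counts over the group, which covers counting error only. Grin2d had 9 counts in WT-H3.3 and 11 in H3.3K27M.

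**Figure D5:**
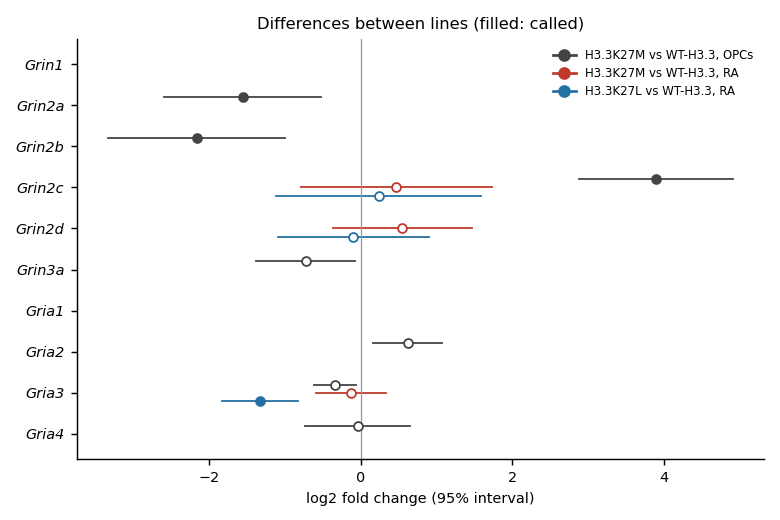
Log2 fold changes (x axis) of the receptor genes (y axis) between lines in OPCs and in RA-treated cells, with 95% intervals. Filled points were called, open points were not, and genes without a point did not pass the filter on low counts. Grin2c lies at 3.90 in OPCs while Grin2a and Grin2b lie left of 0, and Gria3 lies at -1.32 for H3.3K27L.

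Marker genes of other cell types also differed between the OPC lines. Fibroblast markers (all 8 had counts in both lines) summed to 1250 and 1352 CPM in WT-H3.3 and to 42.8 and 46.1 CPM in H3.3K27M. The neuron list summed to 837 and 842 against 1757 and 1898 CPM, with all 10 genes detected, although Stmn2 was at 118 to 167 CPM in WT-H3.3 and at 0.560 to 0.887 in H3.3K27M. The astrocyte list (7 of 7) summed to 1322 and 1337 against 1495 and 2010 CPM, with Gfap at 25.02 to 35.3 and at 0 to 0.296 CPM. The OPC list (8 of 8) summed to 764 and 791 against 2217 and 2613 CPM, with Olig2 at 289 to 348 and 1024 to 1077 CPM but Pdgfra at 16.4 to 24.4 and 0.591 to 0.840. Endoderm markers summed to 99.2 to 118 and 22.7 to 24.99 CPM, neural progenitor markers to 7614 to 7684 and 4297 to 5870, and oligodendrocyte markers, with Mag at 0 in both, to 23.7 to 27.6 and 32.8 to 34.6. The part of these differences in those of the receptor genes was not tested.

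The other genes of glutamate signalling were counted by lists. In OPCs, H3.3K27M against WT-H3.3 called 4 of the 7 tested of 12 auxiliary subunits, 3 higher and 1 lower, with a median of 0.64 beside 0.00 over all genes, of which 28.0% were called. Among them Neto1, a partner of kainate and NMDA receptors, was 3.45 higher, and the AMPA receptor partners Cacng4 and Gsg1l 2.28 and 3.28 higher. Of 8 metabotropic receptors 4 were tested, with Grm5 (2.81) and Grm3 (4.40) higher and Grm8 (-3.59) lower. Of the 8 kainate and delta receptor genes, 6 were tested and Grik4 alone was called (-1.54). Of 22 scaffold and signalling genes, 17 were tested, 5 were higher and 3 lower, among them Dlgap3 (3.98), Camk2b (1.75) and Camk2d (-2.37). The glutamate transporter genes Slc1a2 (1.26) and Slc1a6 (1.70) were higher among 7 of 11 tested. Of the 8 genes of the REST complex, which represses neuronal genes, Rcor2 (2.63) and Sin3a (1.304) were higher. Whether the genes of these lists passed the filter on low counts in both lines was not checked. Their calls, medians and values between the OPC lines are therefore a description.

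Against ESCs, all 7 auxiliary subunits tested were higher in OPCs, with a median of 4.60 beside -0.26 over all genes, of which 66.9% were called. Of 6 kainate and delta receptors tested, 5 were higher and 1 lower. In ESCs alone, 4 auxiliary subunits, 4 kainate and delta receptors and 3 metabotropic receptors passed the filter. So did 7 transport, 17 scaffold and 3 retinoid response genes. The others entered with libraries of other states in the model, so the counts, median and values of these lists are a description. Grid1 was 4.79 and Grik4 3.12 higher. Grm5 was 10.91 higher and the glial glutamate transporters Slc1a3 and Slc1a2 7.05 and 10.57 higher, in lists of 3 higher and 1 lower of 5 metabotropic receptors and of 4 higher and 2 lower of 9 transport genes. Of the scaffold genes 7 were higher and 4 lower of 18, and of the REST complex 1 was higher and 5 were lower of 8, with Rest itself at -1.86. Of the 6 retinoid response genes 2 were lower. Against RA-treated cells (47.0% of all genes called) OPCs were higher for 4 of 6 kainate and delta receptors, 6 of 7 auxiliary subunits and 3 of 5 metabotropic receptors, with none lower. In that comparison 3 scaffold genes were higher and 5 lower, 3 transport genes were higher and 1 lower, 4 REST complex genes were lower and all 6 retinoid response genes were lower. In RA-treated cells alone, 3 kainate and delta receptors, 2 auxiliary subunits and 0 metabotropic receptors passed the filter. In OPCs alone, 1 retinoid response gene did. The counts of these lists against RA-treated cells are again a description.

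In RA-treated cells against ESCs, where 47.9% of all genes were called, all 6 retinoid response genes were higher, led by Cyp26a1 (12.53), which degrades RA. Of these 6 genes, 3 passed the filter in ESCs alone, so this count is a description. So are the counts of the kainate and delta, auxiliary, scaffold, metabotropic and transport lists against ESCs. The REST complex had 4 of 8 genes lower, Rest by -1.69 and Kdm1a by -1.01, close to the fold threshold. The median of all genes in this comparison was -0.0012 with TMM and 0.28 with the size factors of DESeq2. List calls were not counted with the latter. Kainate and delta receptors split, with Grik5 (2.54) higher and Grik3 (-2.49) lower among 6, and 2 of 7 auxiliary subunits (Cacng7, 1.82, and Shisa9, 2.76) were higher. Of 18 scaffold genes 8 were higher and 3 lower, of 5 metabotropic receptors 1 was higher and 2 lower, and of 9 transport genes 5 were higher and 2 lower. From 24 to 72 h of Dox in RA-treated cells (42.9% of all genes called) Grik5 (-1.87) and Grik3 (-2.76) were lower, 4 scaffold genes were higher and 5 lower of 18, and Rcor2 (2.29) was higher while Sin3a (-2.08) was lower among 2 higher and 2 lower of 8. There 1 of 5 transport genes was higher (Slc1a3, 1.10), Stra8 (1.66) was higher and Rarb (-3.17) lower of 6 retinoid response genes, and 0 of 2 auxiliary subunits were called. Whether these genes passed the filter on low counts at both times was not checked, so the counts and values between times are a description.

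In H3.3K27L ESCs, with 3.46% of all genes called, the neuronal glutamate transporter Slc1a1 was lower (-1.01, SE 0.26, adjusted p = 0.0154 in edgeR's quasi-likelihood test), and 0 genes of the other 6 lists were called. In RA-treated H3.3K27L cells, with 3.68% of all genes called, 2 of 6 retinoid response genes were lower, Hoxb1 (-1.5, SE 0.24) and Dhrs3 (-1.06, SE 0.24), and 0 genes of the other lists were called by edgeR's quasi-likelihood test. With GSK343, between Dox times in WT-H3.3 ESCs, in the change of the H3.3K27L difference with time and in RA-treated H3.3K27M cells, the same test called 0 genes of the 7 lists.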

How the data were processed

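The deposited values were raw counts per gene, which the authors made from mouse RNA-seq reads (QuantSeq 3′ or KAPA kits) aligned to mm9 with STAR 2.7.1 and at most 10 mismatches. The counter, annotation and strand setting, and the kit of each library, are not given in the sources used here. Columns were matched to samples by line and time. The ChIP-seq samples were not analysed here.

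Counts of 42 libraries were fitted with edgeR 4.0.16 (limma 3.58.1, R 4.3.3) after filterByExpr and TMM, with group-by-time means in ESCs, line and Dox time in RA-treated cells, line in OPCs, and state and line for all libraries together. Called genes had a Benjamini-Hochberg adjusted p under 0.05 over all genes tested and a fold above 2 or below 0.5. Positions came from GENCODE on mm9. Symbols were found for 32589 IDs, with 98.2% of counts, and 1435 genes of chromosome 8, for which the study reports a potential duplication, were left out with 5.78% of counts. CPM were scaled by TMM factors. Ratios of counts carry exact intervals, and a floor of 3 counts stands in for 0, both for counting error only.

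The receptor genes, gene lists and markers were chosen with earlier results of these data known. All 10 receptor genes are named, with at most 3 called genes of lowest adjusted p per list and comparison (some list results are not reported here), and the 5 genes most like Grin1 and 3 most like Grin2d and Gria3 in ESCs. Markers named singly were chosen after their values were seen. Of 137 list genes 1 was not matched and 2 were matched by a synonym. Alternatives were DESeq2 1.42.0, RLE factors, no filter, no fold threshold, chromosome 8 kept, subsets of libraries, a replicate block and each library left out. Deviations of same-numbered replicates from their group means correlated at 0.604 to 0.711 between H3.3K27M and WT-H3.3 ESCs, at -0.705 to 0.261 for H3.3K27L, at -0.459 to 0.587 for GSK343 and at 0.277 in OPCs, where the number coincides with Dox time. Depth is given with the results. The fits were tested on simulated data. Tables, ratios and plots used SciPy 1.17.1, Matplotlib 3.10.9, pandas 2.3.3 and NumPy 2.4.6 under Python 3.11.15.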

Additional observations from a re-analysis of the deposited data

Results flagged for a closer look

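Of 27 groups examined, each being 1 gene in the ESC libraries of 1 line or treatment, 3 held a library far from the others. These were Grin2b at 0.612 CPM (6 counts) in WT-H3.3 at 4 h, replicate 1, Grin2c at 2.02 CPM (22 counts) in H3.3K27M at 8 h, replicate 2, and Gria4 at 0.666 CPM (4 counts) in H3.3K27M at 72 h, replicate 2. At counts this low, chance also gives such libraries.

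For 3 genes the difference of H3.3K27M minus WT-H3.3 in mean CPM, taken at matched times, had opposite signs between states in every library compared. For Grin2d it was -0.619 in ESCs at 24 and 72 h, 1.39 in RA-treated cells and 0.364 in OPCs. For Grin3a it was -5.93 in OPCs and 0.329 in RA-treated cells, and for Gria1 it was -1.34 in OPCs and 0.88 in RA-treated cells. In RA-treated cells Gria1 had 14 counts in H3.3K27M and 1 in WT-H3.3, and Grin3a 20 and 4. Grin2d had 11 and 9 in OPCs. Scaled for depth, the exact intervals of these ratios (0.633 to 176, 0.498 to 5.98 and 0.668 to 4.84, counting error only) include 1. Those of Grin2d in RA-treated cells (1.20 to 2.88) and of Grin3a in OPCs (0.495 to 0.760) do not. These differences between states were not tested.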

How the results depend on the processing

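Of the fitted differences of receptor genes in the tested comparisons, over all alternatives, 1001 kept direction and call, 43 kept direction and lost the call, 3 gained it and 36 changed sign. The number of receptor genes called went from 1 to 0 for H3.3K27L against WT-H3.3 in RA-treated cells with Dox times pooled (Grin2c at -0.0750), from 2 to 1 for 72 h against 24 h with no filter and with DESeq2, from 3 to 1 for OPCs of the lines with DESeq2, and with RA libraries of 72 h alone from 7 to 4 against ESCs and from 7 to 4 for OPCs against RA-treated cells. There Grin2b (-0.63), Grin2d (-1.71), Grin3a (-1.40) and Gria4 (-0.10) against ESCs and Grin2c (-0.50) for OPCs changed sign. In the WT-H3.3 line alone, Grin2a (0.42) and Grin2b (-0.23) against ESCs, and Grin2c (-1.59) and Gria1 (3.15) for OPCs against RA-treated cells, changed sign. The causes were not tested.

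Leaving out each library, the number called was 0 to 0 in all ESC comparisons and for H3.3K27M in RA-treated cells, 1 to 1 for H3.3K27L there, 1 to 2 for 72 h against 24 h (2 only without H3.3K27L at 72 h), 2 to 3 for OPCs of the lines, 3 to 8 for RA-treated cells against ESCs (3 without WT-H3.3 or H3.3K27L at 24 h), 7 to 9 for OPCs against ESCs and 4 to 7 for OPCs against RA-treated cells (4 without H3.3K27M at 24 h). In OPCs of the lines Gria1 joined the calls without each library but WT-H3.3 at 24 h. The Grin1 difference of H3.3K27M ESCs at 24 and 72 h ranged from 1.35 to 1.66. Signs changed for Grin2d (-1.60 to 0.15) with H3.3K27L, Grin1 (-1.67 to 0.21) and Gria3 (-1.31 to 0.0486) with GSK343, Grin1 (-0.45 to 0.0586) and Grin2d (-0.11 to 0.0346) between times, Grin1 (-3.19 to 3.69) in the change of the H3.3K27L difference, Grin2c (-0.35 to 1.45) and Gria3 (-0.32 to 0.14) with H3.3K27M and Grin2c (-0.54 to 1.27) and Grin2d (-0.86 to 0.10) with H3.3K27L in RA-treated cells, Gria4 (-0.40 to 0.46) in OPCs, Grin2b (-1.13 to 0.62) in RA-treated cells against ESCs and Grin2c (-0.30 to 0.95) in OPCs against RA-treated cells.

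With the replicate number as a block, the Grin1 difference of H3.3K27M ESCs was 1.49, receptor calls stayed at 0 in ESCs and 3 in OPCs (where the number in the sample titles is 1 for 72 h and 2 for 24 h and so is also the Dox time), and Grin2d with H3.3K27L was at -0.0041. The column headers of the counts give replicate 2 for every OPC library, against the titles, so the OPC numbers are not settled. The numbers do not pair H3.3K27L or GSK343 with WT-H3.3 at all times. For H3.3K27L the correlation was -0.594, -0.705 and -0.673 at 4, 8 and 24 h, where the numbers appear crossed, and 0.261 at 72 h. For GSK343 it was 0.00838, -0.294, -0.459 and 0.587 at these times. The main fit held no block. With crossed numbers, 641 instead of 487 genes were called for H3.3K27L and 48 instead of 10 between times, where the plain block called 18. Of all genes, no filter called 769 for H3.3K27L, 25 for GSK343, 64 between times, 8 for the change of the H3.3K27L difference and 79 for H3.3K27M in RA-treated cells, where DESeq2 called 17 and pooled Dox times 0 instead of 2. Pooled times called 0 instead of 451 for H3.3K27L in RA-treated cells, the libraries compared alone 0 instead of 10 between times, and RA libraries of 72 h alone 4836 instead of 7742 for OPCs. Low counts limit the receptor genes in ESCs.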
